A study of Homo sapiens with 4 samples.

Results

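The nuclear-encoded subunits of the respiratory chain and of ATP synthase were followed by RNA sequencing in 2 human colon lines, HT-29, from a colorectal adenocarcinoma, and NCM460, which the study used as normal colon cells. Each line was sequenced without treatment and after 24 h with 100 μg/mL of sturgeon chondroitin sulfate (SCS), a sulfated glycosaminoglycan from sturgeon. Every condition was sequenced as a single library (4 in all). No difference therefore has a replicate check, no test within a line was made, and library and condition cannot be told apart. The libraries are of whole cultures, so fewer cells of a kind and less RNA per cell cannot be told apart either. The members were the protein-coding genes whose names mark them as subunits: NDUFA, NDUFB, NDUFC, NDUFS and NDUFV genes for complex I, SDHA to SDHD for complex II, UQCR genes and CYC1 for complex III, COX4 to COX8 for complex IV and ATP5 genes for complex V. The rule used names only, and it was set with earlier results of these data known. The names matched 105 of the 64962 rows of the deposited table and 90 gene symbols, of which 39 belong to complex I, 4 to complex II, 10 to complex III, 17 to complex IV and 20 to complex V.

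Complexes I and II pass electrons from NADH and succinate to ubiquinone, complex III passes them on to cytochrome c, and complex IV hands them to oxygen. Complexes I, III and IV pump protons across the inner mitochondrial membrane, and complex V, the ATP synthase, uses the return of these protons to make ATP. A few core subunits are encoded by mitochondrial DNA, while every gene described here is transcribed in the nucleus, translated in the cytosol and imported. The study also assayed cellular ATP with SCS in both lines, which gives the question asked here of the transcripts: did the RNAs of the machinery that makes ATP change with SCS, and did they do so in both lines?

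The names do not map onto the complexes without exceptions, which were left as the rule set them. NDUFA4 is now known as a subunit of complex IV. COX7A2L is known for tying complexes III and IV into supercomplexes. ATP5S and ATP5SL carry ATP synthase names but are known from work on ATP synthase coupling and on complex I assembly. NDUFAB1, the acyl carrier protein of complex I, is left out by its name and was counted among the electron carriers below. Some names in the table are older ones: ATP5A1, ATP5B, ATP5C1, ATP5D and ATP5E are the α, β, γ, δ and ε subunits of the catalytic F1 part, now ATP5F1A to ATP5F1E, and ATP5F1 is the b subunit of the peripheral stalk, now ATP5PB.

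Of the 90 symbols, 7 had no fragment in any library (ATP5EP2, ATP5L2, COX4I2, COX6A2, COX7A1, COX7B2 and COX8C). The rest fell into 81 of the 18650 loci with at least 1 fragment, because the table lists NDUFC2 with its readthrough gene NDUFC2-KCTD14, and ATP5J2 with ATP5J2-PTCD1, under shared values. Values shared with another gene were found at 21 member loci, and the fragments of the genes at such a locus cannot be told apart. After a filter at a mean of 1 CPM (fragments scaled to library depth), 79 loci were compared in each comparison, and UQCRHL and COX6B2 were left out by it. NDUFA3 stands in 10 rows, NDUFA6 in 5 and NDUFA10 and COX8C in 2 each, each counted as 1 symbol. At 3 fragments or fewer in at least 1 library were NDUFA4L2, NDUFS4, ATP5S, UQCRHL and COX6B2.

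The libraries held between 1156567 and 1654764 fragments, of which between 507692 and 1383424 came from the nuclear genome. The mitochondrial genome took 35.8% and 13.8% of the fragments in HT-29 without and with SCS and 62.3% and 46.3% in NCM460, and what this share contributes to the changes below was not tested. The members held 7317, 6581, 4272 and 5848 fragments in HT-29 cells without and then with SCS, followed by NCM460 cells without and then with SCS, and values from all libraries are given in this order below. The median member had 69, 65, 35 and 60 fragments, so that the NCM460 control was the least precise library for them. A count of 0 allowed up to 1.47, 1.25, 3.85 and 2.77 CPM. The epithelial markers EPCAM, CDH1, KRT8, KRT18 and KRT19 were present in all libraries. CDX1 and GPA33 were at 0 in all, CDX2 was at 0 in HT-29 with 14 and 12 fragments in NCM460, and KRT20, VIL1 and LGALS4 were at 0 in NCM460. Of 12 colon markers, 8 stood above 3 fragments in each HT-29 library and 6 in each NCM460 library, with a summed level of 6526, 3535, 4346 and 2659 CPM. Of 4 leukocyte markers only LYZ, which gut epithelium can also make, was found, in HT-29. Of 6 mesenchymal markers the sum was 4.89, 4.99, 113 and 129 CPM, most of it SPARC in NCM460.

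Measured per length of transcript, the members spanned a wide range of levels, with like ranks in all libraries. The median member stood at 34.9, 23.1, 67.0 and 55.1 FPKM (fragments per kilobase of transcript, scaled to library depth), as deposited and without further scaling between libraries. Complex IV had the highest median level of the complexes in all 4 libraries, at 83.5, 69.9, 159.7 and 112 FPKM. Its small subunit COX8A led in the HT-29 control, with 202, 138, 436 and 227 FPKM, but it shares its values with the deubiquitinase gene OTUB1. COX4I1, the regulatory subunit of complex IV that binds ATP, led in both NCM460 libraries, with 150.2, 121, 569.8 and 445 FPKM. ATP5B, the catalytic β subunit of ATP synthase, stood at 128, 67.0, 454 and 263 FPKM. Ranks of FPKM across the 81 member loci correlated between libraries with Spearman's rho from 0.73 to 0.90, a description over genes that share length and sequence in every library.

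Isoforms of other tissues were absent or scarce. COX4I2 (known from lung), COX6A2 and COX7A1 (heart and skeletal muscle), COX7B2 and COX8C (testis) had no fragment in any library, which allows up to the CPM given above for a count of 0. COX6B2, the testis form of COX6B1, held 0, 3, 0 and 1 fragments, and UQCRHL, a copy of UQCRH, held 0, 1, 0 and 0 fragments. NDUFA4L2, a relative of NDUFA4 induced by low oxygen, held 2, 10, 7 and 4 fragments. All of these were at 10 fragments or fewer in each library.

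Many respiratory genes carry sites for NRF1, GABP or YY1 near their start, factors known to drive nuclear genes of mitochondria. Promoter sequences from RefSeq on GRCh38.p14, from 250 bases before to 50 bases after a gene's start, were at hand for 64 of the 81 loci, and 3 motifs were searched on both strands, with letters chosen after values of these data were seen. Their letters stand in capitals in the windows below, where the fifth and sixth base of the NRF1 motif may vary with the strand. The NRF1 motif lay in 15 of the 64 member promoters (23.4%), against 6.98% of all 27305 genes with a promoter and 14.6% of the 5824 of them at 10 CPM or more in the HT-29 libraries. The GABP motif CCGGAAGT lay in 11 (17.2%, against 4.95% and 11.4%), and the YY1 motif in 8 (12.5%, against 1.46% and 4.07%). In no member promoter did matches of different motifs overlap, and 29 promoters held at least 1 of them. A match of letters is a description and not a site in use.

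The windows below are shown because they belong to core subunits on which the comparisons turn. Each is 30 bases long, 5′ to 3′ on the strand of the gene, with the match in capitals, which read ACTTCCGG where the GABP motif lies on the other strand. Positions are counted from the RefSeq start. In SDHA, the flavoprotein of complex II, 4 matches of the NRF1 motif followed each other 49 bases apart, from 166 to 19 bases before that start. The table places the start of SDHA further upstream, as given below, so that by its coordinates the later of these windows lie inside the gene. In SDHD, a membrane anchor of complex II, the NRF1 and GABP motifs began 110 and 78 bases before the start. In ATP5A1 and NDUFS1 a GABP motif lay 49 and 158 bases before the start. In SDHB and UQCRC1 the YY1 motif lay after the start, at 10 and 23 bases.
SDHA, NRF1, chr5:218144-218173, plus strand: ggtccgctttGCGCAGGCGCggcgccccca
SDHA, NRF1, chr5:218193-218222, plus strand: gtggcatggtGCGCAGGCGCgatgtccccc
SDHA, NRF1, chr5:218242-218271, plus strand: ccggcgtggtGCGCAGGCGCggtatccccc
SDHA, NRF1, chr5:218291-218320, plus strand: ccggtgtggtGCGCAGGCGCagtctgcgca
SDHD, NRF1, chr11:112086753-112086782, plus strand: agctgtgtttGCGCATGCGCgacgggtgtg
SDHD, GABP, chr11:112086784-112086813, plus strand: accgcctctcgACTTCCGGttcacccagca
ATP5A1, GABP, chr18:46098327-46098356, minus strand: cgaggggcagtACTTCCGGgtcaggtgggc
NDUFS1, GABP, chr2:206159584-206159613, minus strand: aggctggggccACTTCCGGcggaactgcgg
COX5B, GABP, chr2:97646014-97646043, plus strand: gaagcccgcccCCGGAAGTccctcctgtct
ATP5C1, NRF1, chr10:7788145-7788174, plus strand: gggagcttcgGCGCATGCGCgctgaggcct
UQCRC1, NRF1, chr3:48609674-48609703, minus strand: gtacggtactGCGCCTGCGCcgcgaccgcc
UQCRC1, YY1, chr3:48609604-48609633, minus strand: ctgcagctggAAGATGGCGGcgtccgtggt
SDHB, YY1, chr1:17054003-17054032, minus strand: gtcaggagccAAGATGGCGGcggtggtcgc

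To compare SCS with control in HT-29, fragments were scaled to CPM with TMM factors, and a locus was called when its fold change passed 1.5 and its exact 95% counting interval excluded no change. Such intervals cover counting error only, so calls describe these libraries. With SCS, respiratory chain RNAs in HT-29 were called lower far more often than higher. Of the 79 member loci, 63 lay below 0 in log2 fold change, 24 were called lower (30.4%, against a background of 14.8% of all 12168 loci) and 2 were called higher (2.53%, against 16.8%). Their median was -0.35, against 0.07 over all loci. When loci were restricted to those averaging 10 CPM or more, where the background was 18.0% lower and 21.0% higher, 32.0% of the 75 members were called lower and 2.67% higher. The members together took 0.689% (exact 95% interval 0.674% to 0.705%) of nuclear fragments in the control and 0.476% (0.464% to 0.487%) with SCS, a summed level of 3576 and 2739 CPM. With only the total fragments as the scale, which moved the median of all loci from 0.07 to 0.31, the members' median was -0.089 and 10 were called lower (against 8.81%). At a 2-fold threshold, 7 of the 79 members were called lower, a share similar to the 8.93% of all loci. None was called higher there (against 9.78%). The larger share of lower calls among members thus depended on the 1.5-fold threshold. Relative to the median of all loci, the members stood from -0.52 to -0.40 under all 12 settings. A change of scale moves members and all loci nearly alike, and a threshold for calls moves neither. This relative measure therefore says little on those settings, here and in the comparisons below.

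All 5 complexes had a median below that of all loci. Complex V was lowest of those with more than 4 loci, with a median of -0.47, 16 of 17 loci below 0, 6 called lower and none higher. Complex III followed at -0.39 with 3 of 9 lower, complex IV at -0.26 with 1 of 11 lower and 1 higher, and complex I at -0.19 with 12 of 38 lower and 1 higher. Complex II had a median of -0.53 with 2 of its 4 loci lower. The 27 members of the core list, which holds main structural subunits such as COX4I1 and UQCRC1 beside the redox and catalytic ones, and the 52 others had medians of -0.29 and -0.46, with 8 and 16 called lower.

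**Figure D1:**
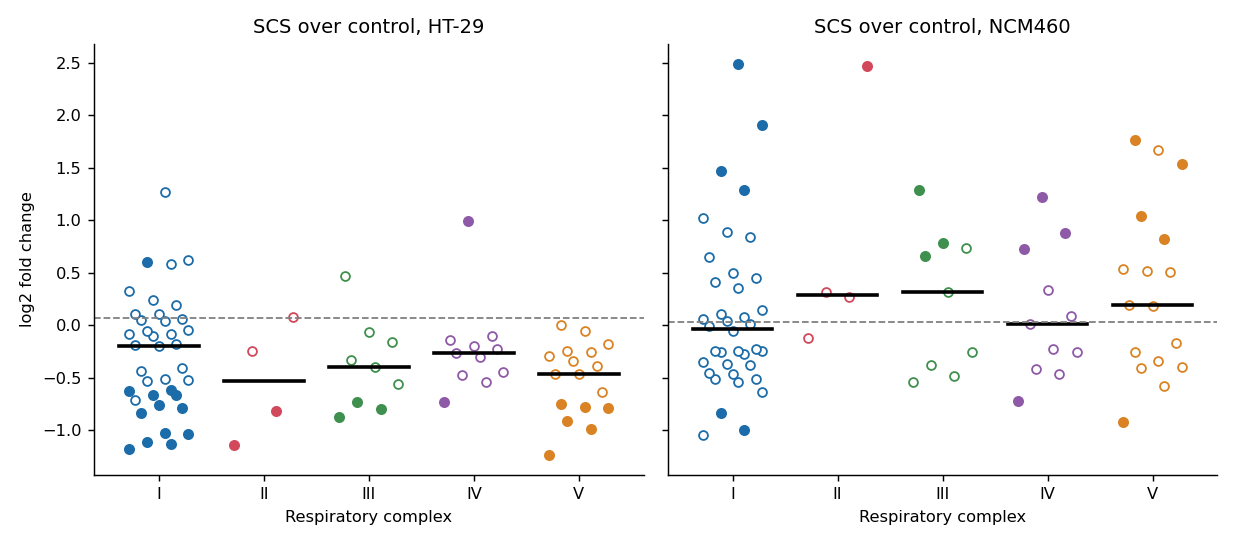
Log2 fold change with SCS for each member locus by complex in HT-29 (left) and NCM460 (right). Filled points were called, black bars are medians and the dashed line is the median of all loci. In HT-29 the medians of the 5 complexes lie from -0.53 to -0.19, below the line at 0.07, and in NCM460 from -0.03 to 0.31.

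Within complex I of HT-29, the core subunits differed among themselves. NDUFS3, a core subunit of the matrix arm, was called lower and stood at 43.5, 19.1, 53.9 and 44.4 CPM, a log2 fold change of -1.13 (95% interval -1.73 to -0.65). It shares its values with PTPMT1. NDUFV1, which binds NADH and FMN, stood at 47.4, 44.5, 136 and 114 CPM and changed by -0.09 (95% interval -0.50 to 0.32). The largest iron-sulfur subunit, NDUFS1, stood at 80.2, 77.0, 21.8 and 62.9 CPM, with a log2 fold change of -0.06 that was not called. The iron-sulfur subunits NDUFS7 and NDUFS8 stood at 14.2, 10.4, 43.7 and 21.3 CPM and at 33.7, 24.6, 74.5 and 50.9 CPM, with -0.40 and -0.44, also not called. NDUFV2, which carries an iron-sulfur cluster beside NDUFV1, was called higher at 0.60 (95% interval 0.27 to 0.96), from 54.7, 83.6, 43.7 and 62.0 CPM. It shares its values with ANKRD12, its FPKM values were 46.2 and 30.7, and on them, after centring on the median of all loci, the change was -0.40, the reverse of the direction by fragments.

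The other calls in complex I were of accessory subunits, which surround the core and are needed for its assembly. NDUFA7, listed with CD320, was lowest at -1.18 (95% interval -1.91 to -0.62), from 31.8, 13.3, 84.7 and 59.2 CPM. Next to it stood NDUFS6, a zinc-binding subunit added late in assembly, at 74.3, 33.7, 60.3 and 43.5 CPM and -1.11 (95% interval -1.55 to -0.74). NDUFB1 and NDUFB3, both small membrane arm subunits, were called lower at -1.04 and -1.03. The remaining calls were NDUFB11 at -0.84, NDUFC2 at -0.79, NDUFC1 at -0.76, NDUFB10 at -0.66, NDUFA2 at -0.66, NDUFS5 at -0.63 and NDUFA3 at -0.62. The highest value at a mean of at least 10 CPM was that of NDUFS4, at 9.29, 15.0, 2.57 and 20.3 CPM, with 0.62 (95% interval -0.15 to 1.57), which included no change.

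In complex II, SDHA, which holds the FAD and oxidises succinate, was at 129.5, 57.8, 113 and 104 CPM and was called lower in HT-29 at -1.15 (95% interval -1.47 to -0.86). SDHA lies at chr5:218241-256700 in the table's GRCh38 coordinates and has pseudogenes of nearly the same sequence, so its reads may be split between them. SDHAP1 held 4, 16, 0 and 5 fragments and SDHAP3 held 3, 1, 0 and 0, and with both added the change was -1.02 (95% interval -1.33 to -0.74). SDHAP2 shares its values with the mucin gene MUC20 and LINC00969, and this locus went from 58 to 296 fragments in HT-29. With that locus added as well, the sum went from 330 to 452 fragments, a log2 change of 0.22 (95% interval 0.01 to 0.43), so the direction depends on whether that locus is counted. These sums were chosen after the values were seen. SDHC, which anchors the complex and binds heme with SDHD, was lower at -0.82 (95% interval -1.21 to -0.46), from 74.3, 41.6, 47.5 and 57.3 CPM. The iron-sulfur subunit SDHB stood at 33.2, 27.9, 43.7 and 54.6 CPM and SDHD at 27.9, 29.5, 5.14 and 34.2 CPM, with changes of -0.24 and 0.08 that were not called. SDHD shares its values with BCO2 and TEX12.

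In complex III, CYC1, the cytochrome c1 heme protein, was called lower in HT-29 at -0.80 (95% interval -1.30 to -0.36), from 47.9, 27.0, 229.8 and 192 CPM. The other calls were the small subunits UQCR11 at -0.87, listed with MBD3, and UQCR10 at -0.74. UQCRFS1, the Rieske iron-sulfur protein, stood at 52.8, 41.6, 44.9 and 34.2 CPM, and the core proteins UQCRC1 at 42.0, 37.5, 225 and 153 CPM and UQCRC2 at 51.8, 49.5, 29.5 and 74.0 CPM. Their changes of -0.33, -0.16 and -0.06 were not called. The highest was UQCRB, which lies by the quinone site, at 26.4, 37.0, 56.5 and 98.0 CPM and 0.47 (95% interval -0.01 to 1.00).

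In HT-29, complex IV had the smallest share of called loci among the complexes. With the GC trend subtracted this no longer held. Complex IV then had 3 of 11 loci called lower and 1 higher, and complex I had 10 of 38 lower and none higher. The main nuclear subunits of complex IV, COX4I1, COX5A and COX5B, changed by -0.14, -0.22 and -0.26 in HT-29, none of them called. COX5A stood at 42.5, 36.2, 78.3 and 66.6 CPM. COX6B1, which faces cytochrome c, was called lower at -0.73 (95% interval -1.08 to -0.42), from 91.4, 54.5, 93.7 and 67.5 CPM. COX7A2L, at chr2:42333546-42425088, was the highest member with a mean of at least 10 CPM, at 55.7, 112, 47.5 and 35.1 CPM, and its 114 fragments became 270, a change of 1.00 (95% interval 0.69 to 1.34). It shares its values with no other gene. Its level was highest in HT-29 with SCS and lowest in NCM460 with SCS, where its change of -0.42 was not called.

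In complex V of HT-29, both main F1 subunits were called lower. ATP5B, the most abundant member by fragments in every library, stood at 248, 147, 636 and 481 CPM and changed by -0.75 (95% interval -0.96 to -0.56). ATP5A1, the α subunit, stood at 116, 60.8, 132 and 274 CPM and changed by -0.92 (95% interval -1.24 to -0.63). The γ subunit ATP5C1, which turns as the central stalk, changed by -0.29, the δ subunit ATP5D by -0.35 and the ε subunit ATP5E by -0.39, none of them called. In the membrane, 3 genes encode the same mature c subunit of the proton-driven ring. Of these ATP5G3, listed with a Y RNA, was lowest of all members at -1.24 (95% interval -1.86 to -0.76), from 44.0, 17.9, 70.6 and 80.4 CPM, and ATP5G1 was called lower at -0.78, from 16.6, 9.16, 62.9 and 41.6 CPM. ATP5G2, at 52.8, 52.9, 110.4 and 92.5 CPM, had 0.00 (95% interval -0.38 to 0.39). The stalk subunit ATP5F1 was lower at -0.79 (95% interval -1.26 to -0.39), from 55.7, 31.6, 37.2 and 66.6 CPM, and ATP5J2, a small membrane subunit listed with PTCD1, at -0.99. ATP5O, which ties the stalk to F1 and is listed with DONSON, stood at 27.4, 26.2, 42.4 and 61.0 CPM and -0.06.

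**Figure D2:**
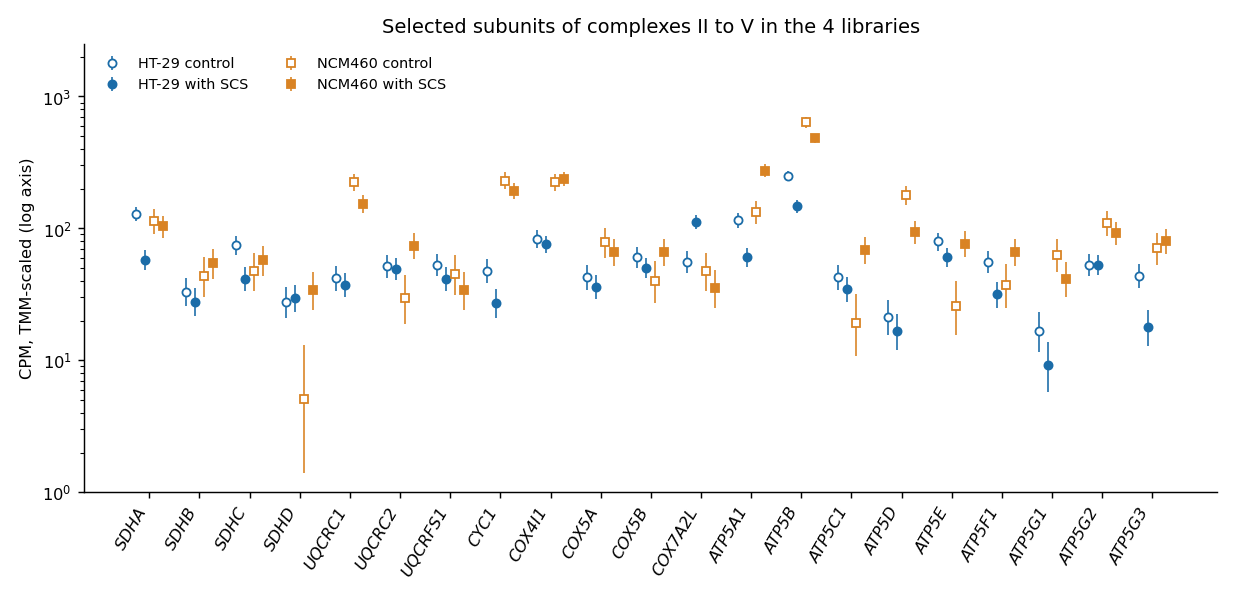
TMM-scaled CPM on a log axis of 21 subunits of complexes II to V in the HT-29 libraries (circles) and the NCM460 libraries (squares), open for control and filled for SCS. Bars are exact 95% Poisson intervals of 1 library each; ATP5A1 stands at 116, 60.8, 132 and 274 CPM in the order of the libraries.

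GC content moved little with these changes in HT-29. Spearman's rho between the change and the GC content of the transcript was -0.18 across the 79 members and -0.12 across all nuclear loci, a description over genes of the same libraries. With the GC trend of all loci subtracted, 24 members were again called lower (30.4%, against 15.9%), 20 of them among the 24 above, 1 was called higher (against 14.5%), and the median was -0.41.

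In NCM460 the members did not move as a group. Their median with SCS was 0.04, against 0.03 for all loci, 42 lay above 0 and 37 below, and 15 were called higher (19.0%, against a background of 15.4% of all 12657 loci) and 4 lower (5.06%, against 13.8%). The members' share of nuclear fragments was 0.841% (exact 95% interval 0.817% to 0.867%) in the control and 0.941% (0.917% to 0.965%) with SCS. Scaled by the TMM factors, their summed level was 5485 and 5407 CPM, a log2 ratio of -0.02 (95% interval -0.08 to 0.04). Relative to the median of all loci, the members' median lay between -0.13 and 0.12 under all 12 settings, so no direction was seen for the group. The medians of complexes I to V were -0.03, 0.29, 0.31, 0.02 and 0.20.

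The change in NCM460 followed GC content closely. Spearman's rho was -0.72 across the 79 members and -0.63 across all nuclear loci, again as a description over genes that share both libraries. The 19 members under 45% GC had a median of 0.84, with 9 called higher and none lower, while the 22 members at 55% and over had a median of -0.46, with none higher and 4 lower. Over the members in between the median was 0.10. With the GC trend of all loci subtracted, 6 members were called higher (against 6.41% of all loci) and 6 lower (against 5.79%), of which 5 and 0 had been called before. What GC content contributes to the change with SCS was not tested.

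**Figure D3:**
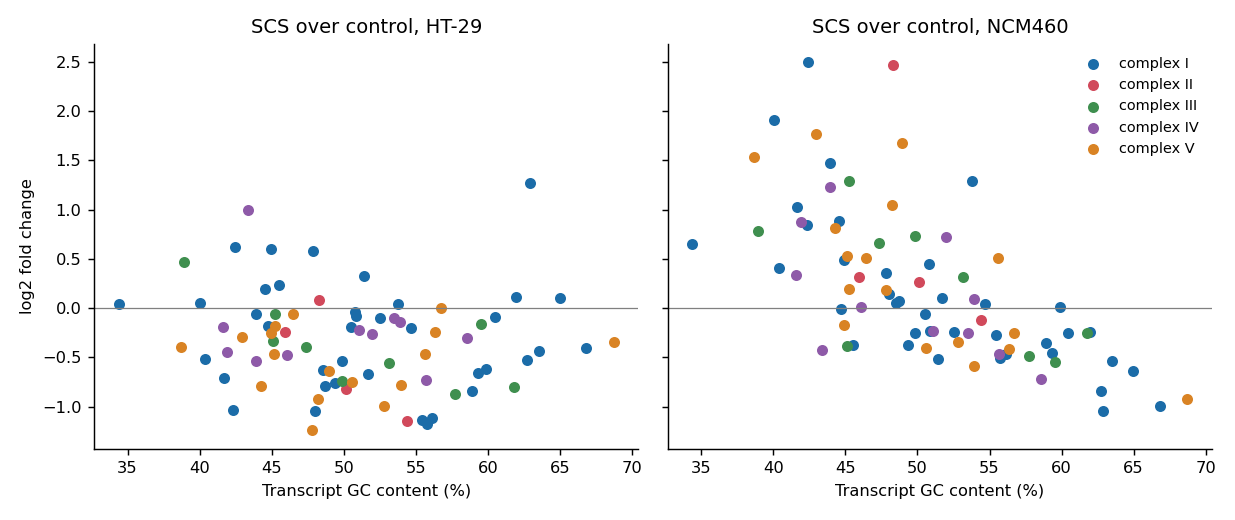
Log2 fold change with SCS against the GC content of the transcript for each member locus in HT-29 (left) and NCM460 (right), coloured by complex. The points slope down in NCM460 (rho -0.72) and show little slope in HT-29 (rho -0.18).

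The called genes of NCM460 included core subunits of every complex. In complex I, NDUFS1, listed with the pseudogene GCSHP3 and of 43.9% GC, was higher at 1.47 (95% interval 0.74 to 2.39), and with the GC trend subtracted at 0.66, no longer called. NDUFS4, an accessory subunit that completes the NADH-binding arm, went from 2 to 22 fragments, a log2 ratio without a prior count of 2.99 (95% interval 0.96 to 6.12). NDUFB5 and NDUFA1 were called higher at 1.91 and 1.29. After subtraction of the GC trend NDUFA1 was still called at 1.62, while NDUFS4 and NDUFB5 stood at 1.52 and 0.74 and were not. In the other direction NDUFS7, of 66.8% GC, was called lower, from 34 to 23 fragments, a level 1.99-fold lower (95% interval of the log2 ratio -1.87 to -0.23), and NDUFA11, listed with FUT5, at -0.84, and with the trend subtracted they were at -0.25 and -0.13. NDUFS3, NDUFS8, NDUFV1 and NDUFV2 had -0.27, -0.54, -0.26 and 0.49 and were not called.

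In complex II of NCM460, SDHD was called higher at 2.47 (95% interval 1.26 to 4.69), from 4 to 37 fragments, and stayed at 2.19 with the GC trend subtracted. SDHA, SDHB and SDHC had -0.12, 0.31 and 0.26, none of them called. In complex III, UQCRC2 was higher at 1.29 (95% interval 0.64 to 2.06), UQCRB at 0.78 and UQCRH, which helps cytochrome c to dock, at 0.66. UQCRC1 was lowest at -0.55 (95% interval -0.86 to -0.24), under 1.5-fold and not called, and CYC1 and UQCRFS1 had -0.26 and -0.38. With the GC trend subtracted, UQCRC2 and UQCRH stood at 0.64 and 0.27 and UQCRB turned to -0.45, none of them called, and UQCRFS1 was called lower at -1.05.

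In complex IV of NCM460, COX5B was called higher at 0.72 (95% interval 0.12 to 1.40) and at 0.89 with the GC trend subtracted, from 60.6, 50.4, 39.8 and 66.6 CPM. COX6C was higher at 1.23 (95% interval 0.54 to 2.04) and COX7B at 0.88, and with the trend subtracted they were at 0.42 and -0.14, neither called. COX8A was called lower at -0.72 (95% interval -1.06 to -0.40) and stood at -0.10 after subtraction. COX4I1 and COX5A had 0.09 and -0.23. COX4I1 stood at 83.6, 75.7, 223 and 238 CPM, so its level differed more between the lines than with SCS.

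In complex V of NCM460 the F1 genes moved apart. ATP5A1 was called higher at 1.04 (95% interval 0.72 to 1.39), ATP5C1 at 1.76 (95% interval 1.02 to 2.74) from 42.5, 34.5, 19.3 and 68.4 CPM, and ATP5E at 1.53 (95% interval 0.86 to 2.36) from 79.7, 60.3, 25.7 and 76.7 CPM. ATP5D was called lower at -0.93 (95% interval -1.32 to -0.55), from 21.5, 16.6, 178 and 93.4 CPM, and ATP5B stood at -0.40, below its control beyond counting error but under 1.5-fold. GC content was 38.7% for ATP5E, 42.9% for ATP5C1, 48.2% for ATP5A1, 50.6% for ATP5B and 68.7% for ATP5D. With the trend subtracted, ATP5A1 and ATP5C1 were still called higher at 0.75 and 0.85, while ATP5E and ATP5D were at 0.29 and -0.17, neither called. The stalk subunit ATP5F1 was called higher at 0.82 (95% interval 0.20 to 1.51) and was not called after subtraction, at 0.05. The c-ring genes ATP5G1, ATP5G2 and ATP5G3 had -0.58, -0.25 and 0.18, and ATP5O had 0.51. By place in the enzyme, medians in HT-29 and NCM460 were -0.39 and 1.04 for the 5 F1 genes, -0.22 and 0.35 for 4 of the peripheral stalk, -0.78 and -0.25 for the 3 c-ring genes and -0.47 and 0.51 for 3 small membrane subunits.

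The changes of the 2 lines, which share no library, were then set side by side. Of the 79 members, 57 had a lower log2 fold change in HT-29 than in NCM460 (72.2%, against 54.1% of the 10849 loci compared in both lines), with a median difference of -0.53, against -0.13 over those loci. With the GC trend subtracted in both, 64 did so (81.0%, against 53.1% of 10794). No member was called in the same direction in both lines, against 3.36% of loci lower and 4.22% higher in both. ATP5A1 and ATP5F1 were called lower in HT-29 and higher in NCM460, 2 of 79 members against 213 of those 10849 loci, a similar share. No member was called the other way round (against 203). After the GC trend was subtracted in both lines, 1 member was called lower in both (against 1.52% of loci). ATP5A1, at chr18:46080248-46104334, held 237, 146, 103 and 296 fragments, and its changes differed by -1.96 (95% counting interval -2.42 to -1.54). ATP5F1, at chr1:111448864-111462773, held 114, 76, 29 and 72 fragments, and its changes differed by -1.61 (-2.41 to -0.91). With the GC trend subtracted in both lines the differences were -1.68 and -0.97, and ATP5F1 was no longer called in NCM460. Across members the changes in the 2 lines had a Spearman's rho of 0.13, and across all loci of 0.14, a description over genes.

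**Figure D4:**
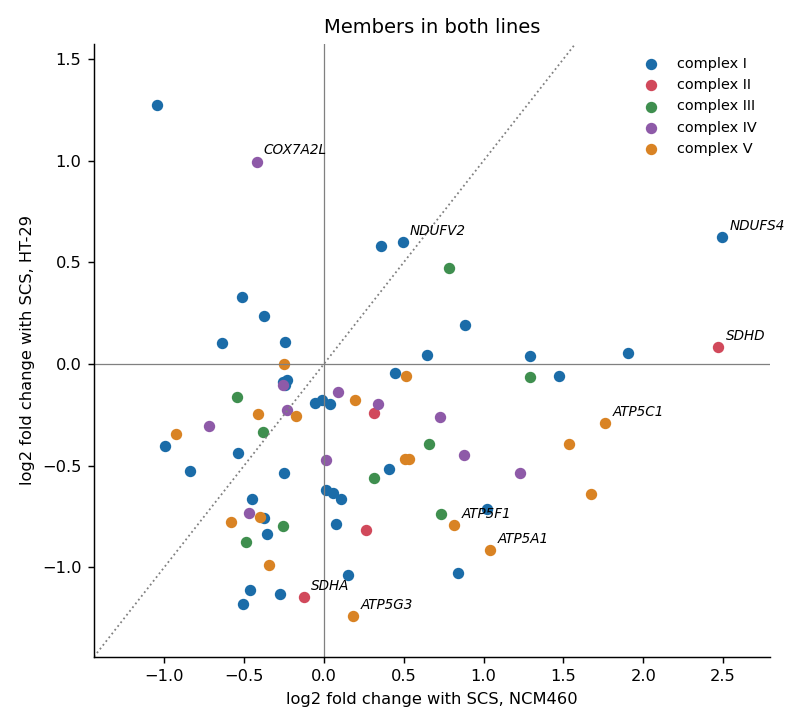
Log2 fold change with SCS in HT-29 against that in NCM460 for the 79 member loci, coloured by complex, with a dotted line where both are equal. Of the points, 57 lie below the dotted line, among them ATP5A1 and ATP5F1 at the lower right.

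The control libraries of the lines were compared next. HT-29 held less of the members than NCM460 relative to all loci, with a median of -0.31 against 0.10 over the 12691 loci compared, 29 called lower (36.7%, against a background of 23.1%) and 14 higher (17.7%, against 25.3%). The direction of the members' own median depended on the scale, since it was 0.72 with total fragments only and 0.0057 with nuclear fragments only, which moved the median of all loci to 1.12 and 0.43. Relative to all loci it stayed between -0.64 and -0.22. GC content moved with this comparison too, with a rho of -0.63 across members and -0.51 across all nuclear loci, and with the trend subtracted the median was -0.55, with 33 lower (against 18.9%) and 9 higher (against 18.9%), of which 24 and 6 had been called before.

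The lowest values belonged to subunits of complexes I, III and V. ATP5D was lower in HT-29 at -2.98 (95% interval -3.58 to -2.55) and at -1.77 with the GC trend subtracted. UQCRC1 was lower at -2.38 (95% interval -2.81 to -2.04) and CYC1 at -2.23 (95% interval -2.63 to -1.90), and they stayed at -1.65 and -1.37 after subtraction. NDUFB10, a membrane arm subunit of complex I, was lower at -2.20 (95% interval -2.79 to -1.74), and ATP5B and COX4I1 were lower at -1.35 and -1.40. All 3 c-ring genes were called lower, ATP5G1 at -1.84, ATP5G2 at -1.05 and ATP5G3 at -0.67, although with total fragments only ATP5G2 and ATP5G3 had 0.032 and 0.40. NDUFV1, NDUFS7, NDUFS8, COX5A and COX8A were called lower as well, at -1.50, -1.54, -1.11, -0.86 and -1.04, of which COX5A and COX8A had 0.21 and 0.048 with total fragments only. With the GC trend subtracted, lower calls went from 4 to 2 among the 7 core subunits of complex I and from 3 to 2 among the c-ring genes. In complex IV they went from 5 to 6 of 11.

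Of the 14 members called higher in HT-29, 7 lay under 45% GC and none at 55% or over. SDHD was higher at 2.19 (95% interval 1.00 to 4.36), NDUFS1 at 1.82 (95% interval 1.15 to 2.69), ATP5E at 1.59 (95% interval 0.96 to 2.38) and ATP5C1 at 1.09 (95% interval 0.34 to 2.04). With the GC trend subtracted SDHD and NDUFS1 were still called, at 1.87 and 0.87, while ATP5E and ATP5C1 were at 0.15 and 0.03. UQCR10 at 0.91, COX7B at 0.76, COX5B at 0.59, SDHC at 0.63 and UQCRC2 at 0.79 were called higher too, and COX7B turned to -0.42 with the trend subtracted, as UQCRC2 did on centred FPKM, to -0.15. SDHA and SDHB had 0.19 and -0.38, UQCRFS1 had 0.23, ATP5A1 had -0.19, ATP5O had -0.61, NDUFS3 had -0.30 and NDUFV2 had 0.32, none of them called. ATP5S held 20, 14, 0 and 3 fragments, at least 2.54-fold higher in the HT-29 control than a floor of 3 fragments in the NCM460 control, and NDUFA4L2 had a log2 ratio without a prior count of -3.20 (95% interval -6.50 to -0.81).

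**Figure D5:**
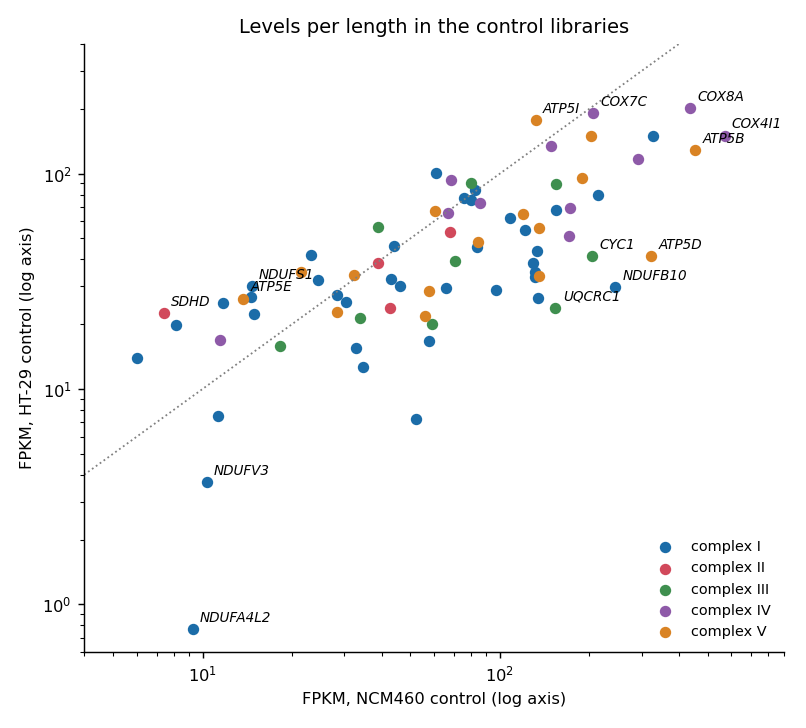
Deposited FPKM of the member loci in the HT-29 control against the NCM460 control on log axes, coloured by complex, with a dotted line where both are equal and members at 0 left out. FPKM values are not TMM-scaled; COX4I1 has the highest value of the NCM460 control (569.8) and COX8A that of the HT-29 control (202).

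Genes that work with the members were described in the same way, and their counts read against the same backgrounds. The mtDNA-encoded subunits are listed in merged loci that hold several genes each. The locus of MT-ATP6, with MT-CO1, MT-CO2, MT-CO3, MT-ND3 and others, changed by -0.64 in HT-29 and -1.01 in NCM460, that of MT-CYB by -0.99 and -1.25, and that of MT-ND6 by -1.68 and -0.95. MT-ND1 and MT-ND2 share a locus with the ribosomal RNAs, which changed by -1.81 and -1.13. The 69 mitochondrial ribosomal proteins, which translate those subunits, had a median of -0.43 in HT-29, from MRPL27 at -1.33 to MRPL55 at 0.89. Of these 25 were called lower (36.2%, against 14.8% of all loci) and 1 higher (1.45%, against 16.8%). In NCM460 their median was 0.00, from MRPS18A at -1.20 to MRPL42 at 2.54. There 10 were higher (14.5%, against 15.4%) and 9 lower (13.0%, against 13.8%). The 74 loci picked by the names of cytosolic ribosomal proteins, which also take in like-named genes such as RPL7L1, had a median of 0.14 in HT-29. They ran from RPL7L1 at -0.63 to RPL36AL at 0.93, with 1 lower (1.35%), which was RPL7L1, and 2 higher (2.70%). In NCM460 their median was 0.34, from RPS15 at -1.02 to RPL7 at 1.46, with 5 lower (6.76%) and 22 higher (29.7%). Between the control lines the 2 lists had medians of -0.18 and -0.46, and the lowest were MRPL10 at -2.28 and RPS28 at -2.83. Called lower were 17 and 31 (24.6% and 41.9%, against 23.1% of all loci) and higher 12 and 10 (17.4% and 13.5%, against 25.3%).

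Of 49 assembly factors, which build the complexes, 42 were compared in HT-29, with a median of -0.12. None was called higher (against 16.8% of all loci) and 3 were called lower (7.14%, against 14.8%). These were ACAD9, needed for complex I, at -1.02 from 89 to 50 fragments, and the complex IV factors COA4 at -0.66 and COX14 at -1.02. In NCM460, 43 were compared with a median of 0.42, and of -0.02 with the GC trend subtracted. None was called lower (against 13.8% of all loci) and 6 were called higher (14.0%, near the background of 15.4%). By name these were NDUFAF2, TMEM126B, SDHAF3, SCO1, LRPPRC and TTC19. LRPPRC, which stabilises mitochondrial mRNA, stood at 1.48, from 39 to 153 fragments, and at 0.69 with the GC trend subtracted, and TTC19, of complex III, at 1.35. With that trend subtracted, NDUFAF2, TMEM126B and SCO1 stood at 1.17, 1.49 and 0.73 and lost their calls, which SDHAF3, LRPPRC and TTC19 kept. By complex, the medians of the factors for complexes I to V were -0.27, 0.02, -0.18, -0.04 and -0.11 in HT-29 and 0.59, 1.16, 0.46, 0.38 and -0.62 in NCM460. At a mean of at least 10 CPM the highest factors for complexes I to V in HT-29 were TIMMDC1 at 0.08, SDHAF1 at 0.17, UQCC2 at -0.10, COX16 at 0.18 and ATPAF1 at -0.11, and the lowest in NCM460 for complexes I, III, IV and V were ACAD9 at -0.33, UQCC3 at -0.63, TACO1 at -0.84 and TMEM70 at -1.11, none of them called. Between the control lines 5 were lower (11.9%, against 23.1%) and 5 higher (11.9%, against 25.3%) in HT-29, with a median of 0.08. At a mean of at least 10 CPM they ran from ATPAF2 at -2.07 to NDUFAF2 at 1.36. With the GC trend subtracted NDUFAF2 was at 0.69 and not called.

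Among 18 electron carriers and genes that make them, 16 were compared in HT-29. Near the background, 3 were called higher (18.8%, against 16.8% of all loci) and 3 lower (18.8%, against 14.8%). COQ10B, which binds ubiquinone, was higher at 1.29 from 26 to 79 fragments, COQ4 at 0.79 and CYCS, cytochrome c, at 0.62 from 134 to 244 fragments, which with the GC trend subtracted was 0.47 and not called. ETFA, which takes electrons from fat oxidation, was lower at -0.78 and NDUFAB1 at -0.76, and PDSS1 went from 9 fragments to 1. In NCM460, 3 of 17 were higher (17.6%, against 15.4%), ETFA at 1.00, CYCS at 0.73 and COQ10B from 1 to 11 fragments. Lower were 2 (11.8%, against 13.8%), COQ4 at -1.42 and ADCK3 at -0.75. Of the called carriers in NCM460, COQ4 alone kept its call with the GC trend subtracted, at -0.85. ETFA, CYCS, COQ10B and ADCK3 then stood at 0.35, -0.15, 0.99 and -0.15. Between the control lines 3 of 17 were higher in HT-29 (17.6%, against 25.3%) and 5 lower (29.4%, against 23.1%). Those with a mean of at least 10 CPM ran from COQ4 at -2.26 to ETFA at 1.24, and ETFA was at 0.49 and not called with the trend subtracted. Of 12 regulators of respiratory genes, 11 were compared. Called lower were 9.09% in HT-29 (against 14.8%), and none higher (against 16.8%). The shares called higher and lower in NCM460 were 18.2% and 9.09% (against 15.4% and 13.8%). Between the control lines both were 27.3% (against 25.3% and 23.1%). In HT-29 only TFAM, which packs and transcribes mtDNA, was called, lower at -0.91 (95% interval -1.52 to -0.41), from 76 to 46 fragments, and the highest was GABPB1 at 0.29. In NCM460 PPRC1 was lower at -0.90 and YY1 and GABPA were higher at 0.97 and 1.43, of which YY1 kept its call with the GC trend subtracted, at 1.08, and PPRC1 and GABPA stood at -0.41 and 0.05. Between the control lines 3 were higher and 3 lower, with POLRMT lowest at -2.53 and TFAM going from 3 fragments in NCM460 to 76 in HT-29.

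Members were also split by the motifs shown above, whose letters and windows were chosen after values were seen. In HT-29 the medians were -0.29 for 15 with the NRF1 motif and -0.28 for 48 without it, -0.26 and -0.31 for the GABP motif, and -0.18 and -0.39 for the YY1 motif. Called lower were 4 of 15, 2 of 11 and 0 of 8 with the respective motif, and 13 of 48, 15 of 52 and 17 of 55 without it, against 14.8% of all loci. In NCM460 the medians were -0.01 and 0.06, 0.31 and 0.00, and -0.07 and 0.02. The GABP group of NCM460 held 5 called higher of 11, against 7 of the 52 members without the motif and 15.4% of all loci. They were ATP5A1, SDHD, NDUFS1 and COX5B, whose windows are printed above, and UQCRH. With the GC trend subtracted NDUFS1 and UQCRH lost their calls. Every member with a printed GABP window was thus called higher in NCM460, so these windows do not stand for the 11, of which 1 was called lower. These medians are descriptions, with no test.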

How the data were processed

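RNA was sequenced from HT-29 and NCM460 cells with and without SCS, 1 library per condition. Per the labels and the study's methods, RNA was read as paired ends on an Illumina instrument. The submitters' processing notes name bcl2fastq 2.17.1.14, cutadapt 1.9.1, Bowtie2 and HTSeq 0.6.1 and the build hg19, while gene coordinates in the deposited table match GRCh38 (93.6% of loci matched by ID have the coordinates of GENCODE 29). The authors deposited a signal per gene (fragment counts scaled by a factor per library) and FPKM values for each library. Dividing the deposited signal by the step of each library gave whole fragments for 100% of values at a tolerance of 0.05 that grew with the count. Large counts pass that tolerance whatever their value, so the share is a check on small counts only. Within a line a count test has no residual degrees of freedom, so none was made. An additive model of line and SCS over the 4 libraries has 1 (edgeR's quasi-likelihood test, added after the values were seen). It takes the difference between the lines in their change with SCS as error, so it cannot show a change that differs between the lines. For SCS it called 9 of 12942 loci at an adjusted p of 0.05 and 695 at an unadjusted p of 0.05, with 0 of the 79 members in either count. On simulated counts it called 24 of 200 loci changed 4-fold in both lines. Rows with the same values were merged into 18650 loci, 1812 of them with more than 1 gene, and 26 rows without a name were left out (at most 0.0352% of fragments in a library).

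Effective library sizes came from TMM in edgeR 4.0.16 (R 4.3.3) over the 4 libraries, and other steps ran in Python 3.11.15 with scipy 1.17.1 and statsmodels 0.14.6. Log2 fold changes used a prior count of 2. Intervals are exact 95% Clopper-Pearson intervals of the ratio of fragments without a prior count, and a count of 0 is limited at 3 fragments. Those of the difference between the changes of both lines are instead 95% intervals from a normal approximation to counting error, also without a prior count. Loci averaging 1 CPM or more were compared. The GC trend was a lowess fit (span 0.3) over all loci compared that had a GC value. On simulated counts that held counting error only, 93 of 100 loci changed 2-fold were called in HT-29, 77 in NCM460 and 85 between the control lines. Called as well were 2.30% of 12028, 2.39% of 12570 and 2.46% of 12476 unchanged loci. The changed loci were drawn from the more abundant ones. These shares therefore do not cover variation between libraries, nor changed loci at low levels.

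The members and lists were chosen with earlier results of these data known. Named with values were core subunits, the highest and lowest member per complex and comparison at a mean of at least 10 CPM, members called in opposite directions, alternative isoforms and the extremes of each list. Values of 1 core member are not reported here, though counts and medians include it. The motifs and the sums of SDHA with its pseudogenes were chosen after values were seen. Alternatives were other scalings (size factors, total or nuclear fragments), a prior count of 0.5, filters of 5 CPM or none, GC and length trends, thinned fragments, FPKM (log2 with a pseudocount of 0.1, centred so that the median of all loci stayed as in the fragments), merged loci left out and a 2-fold threshold. Sequences are from RefSeq on GRCh38.p14.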

Additional observations from a re-analysis of the deposited data

Results flagged for a closer look

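ATP5A1, the α subunit of ATP synthase, was called lower with SCS in HT-29 and higher in NCM460, a difference between the changes of -1.96 on the log2 scale. ATP5F1, the b subunit of its peripheral stalk, showed the same pattern with a difference of -1.61. After subtraction of the GC trend, ATP5A1 was still called higher in NCM460 at 0.75, while ATP5F1 stood at 0.05 and was not called. Each was picked out because the change went one way in the one line and the other way in the other. The pattern was about as frequent among members as among all loci. Called lower in HT-29 and higher in NCM460 were 2 of 79 members, against 213 of 10849 loci. With the GC trend subtracted in both lines these were 1 of 79 and 132 of 10794. The pattern therefore does not set the members apart from other loci. With 1 library per condition, neither difference was tested.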

How the results depend on the processing

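No paired analysis was possible because there was 1 library per condition and the labels give no replicate numbers. With total fragments only, the members' median was -0.089 in HT-29, 0.72 in NCM460 and 0.72 between the control lines, where nuclear fragments only gave 0.0057. In the counts that follow, the share of all loci called stands in brackets. Calls higher in HT-29 were then 6 (24.9%), and 1 with size factors (16.0%), nuclear fragments (11.3%), the GC trend (14.5%) or merged loci left out (16.8%), and 0 at 2-fold (9.78%). Calls lower in HT-29 were 10 with total fragments (8.81%) and 7 of 79 members at 2-fold (8.93%), where the share was similar to that of all loci. Calls higher in NCM460 were 40 with total fragments (32.6%) and 6 with the GC trend (6.41%), and calls lower were 10 with size factors (16.2%), 0 with total fragments (2.05%), 2 with merged loci left out (13.8%) and 0 at 2-fold (8.09%). Between the control lines, calls higher were 40 with total fragments (50.7%), 9 with the GC trend (18.9%) and 7 at 2-fold (22.4%), and calls lower were 9 with total fragments (8.87%) and, with merged loci left out, 19 of 59 members (23.1%). The called genes that turned direction were these. NDUFV2 in HT-29 had -0.40 on FPKM, and SDHA had 0.22 with its pseudogenes and the MUC20 locus. In NCM460 COX7B and UQCRB had -0.14 and -0.45 with the GC trend. Between the control lines ATP5G2, ATP5G3, COX5A and COX8A had 0.032, 0.40, 0.21 and 0.048 with total fragments, COX7B had -0.42 with the GC trend and UQCRC2 -0.15 on FPKM. The cause was not tested. Of the other values of called genes under an alternative, 557 kept direction and call and 92 lost the call. Of 682 values of named genes that were not called, 56 became called and 69 had the other sign, which is not listed here. The NCM460 control, with a median of 35 fragments per member, limits the precision of both comparisons that use it.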
